A study of Mus musculus with 4 samples.

Results

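Intestinal tumour cells carrying the stem cell marker Lgr5 alone were set against tumour cells carrying a tuft cell marker alone, across every gene that the arrays measured in either population. The array of the Lgr5+ tuft marker- cells, called Lgr5-only cells here, was compared with the array of the Lgr5- tuft marker+ cells, called tuft-only cells. A gene entered if its probe signal was well above background on at least 1 of these 2 arrays, which 18217 of 22911 genes with a named probe did. Of these, 15834 were above background on both arrays, 1060 on the Lgr5-only array alone and 1323 on the tuft-only array alone.

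The study sorted EpCAM+ tumour epithelial cells from Lgr5CreERT2/+ mice that carried the Ctnnb1lox(ex3) allele, 14 days after tamoxifen, by Lgr5 and by the tuft cell marker IL17RB. All 4 sorted populations come from mice of this genotype and treatment, in which loss of an exon of the gene for beta-catenin stabilises the protein, and no sample from untreated or normal intestine was analysed here. Cre is driven from the Lgr5 locus, so recombination starts in cells that use that locus, and the recombined share of each sorted population was not measured. The labels give the genotype in full as Lgr5CreERT2/+; Ctnnb1lox(ex3)/ox(ex3), and give neither the number of animals in a sort, their age, nor the part of the intestine. Besides the Lgr5-only and tuft-only arrays there is 1 array of cells with both markers (Lgr5+ tuft marker+) and 1 of cells with neither (Lgr5- tuft marker-), which are used here to place the differences.

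Crypt base stem cells renew the intestinal epithelium and are recognised by Lgr5, a receptor for R-spondins that strengthens Wnt signalling. Tuft cells are rare chemosensory epithelial cells that use a taste-like signalling cascade, make eicosanoids and release the cytokine IL-25, for which IL17RB is a receptor subunit. Paneth and goblet cells are the secretory cells of the crypt, the former storing antimicrobial peptides and the latter mucins.

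Each population was measured on 1 array, so there are no replicates, nothing was tested and the number of arrays limits the precision. A level is the log2 intensity of a gene's brightest probe minus the 75th percentile of its array, so that 0 is that percentile. Where 4 levels follow each other without names, they are those of Lgr5-only, both-marker, neither-marker and tuft-only cells, in this order. A difference is the Lgr5-only level minus the tuft-only level. The error after ± is the one the scanner software gave for the spots, carried through to the difference, with a median of 0.22 over genes. It leaves out variation between animals, sorts and labelling. A second scale of error is the spread between different probes of 1 gene, with a median SD of 0.39 over 4714 genes. Where a signal was below the array's floor (a level of -3.86 for the Lgr5-only and -3.66 for the tuft-only array), the floor was used. A difference is written as "at least" where the dimmer signal was below the floor or not above background. On the Lgr5-only and tuft-only arrays 68.9% and 69.0% of spots were well above background, against 60.2% on the both-marker and 64.3% on the neither-marker array. In bulk RNA of this kind, fewer cells of a type and less RNA per cell cannot be told apart.

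The sort markers went with their labels. The Lgr5 level was -0.80 in Lgr5-only, -0.78 in both-marker and -3.19 in neither-marker cells, and was not above background in tuft-only cells, so that Lgr5 was at least 7.24-fold higher in Lgr5-only than in tuft-only cells. Il17rb stood at -3.13 in Lgr5-only, -0.38 in both-marker and 0.12 in tuft-only cells and was not above background in neither-marker cells. It was 9.5-fold higher in tuft-only than in Lgr5-only cells, a difference of -3.25 ± 0.29, while its 2 probes gave -3.25 and -1.42. Under normexp background correction these differences were smaller, at 1.15 for Lgr5 and -1.45 for Il17rb. Epcam, the adhesion protein used as an epithelial gate, was at 5.22, 5.02, 5.56 and 4.52 in Lgr5-only, both-marker, neither-marker and tuft-only cells. It was thus lowest in tuft-only cells, by 0.70 ± 0.20 against Lgr5-only cells. Ctnnb1 was lowest in tuft-only cells too, at 4.96, 5.07, 5.23 and 4.38, a difference of 0.58 ± 0.20, while its other probe gave 1.36.

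Of the 18217 genes, 1446 (7.94%) were at least 2-fold higher in Lgr5-only cells and 2071 (11.4%) were at least 2-fold higher in tuft-only cells. These shares over all genes are the background for the counts of list members given below. The excess on the tuft-only side grew with the size of the difference. At least 4-fold apart were 195 genes (1.07%) on the Lgr5-only side and 652 (3.58%) on the tuft-only side, and at least 16-fold apart were 3 genes (0.0165%) and 158 (0.867%). Higher calls made up 41.1% of all genes at least 2-fold apart, and this share was 52.6% when arrays were scaled to their median and 23.4% in the authors' table of processed values, which shift the median of the genes above background on all 4 arrays to 0.14 and -0.20 from 0.02. Normexp background correction with quantile normalization left 342 and 829 genes at least 2-fold apart. The median difference over all genes was -0.03, and 5% of genes lay below -1.64 and 5% above 1.23.

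**Figure D1:**
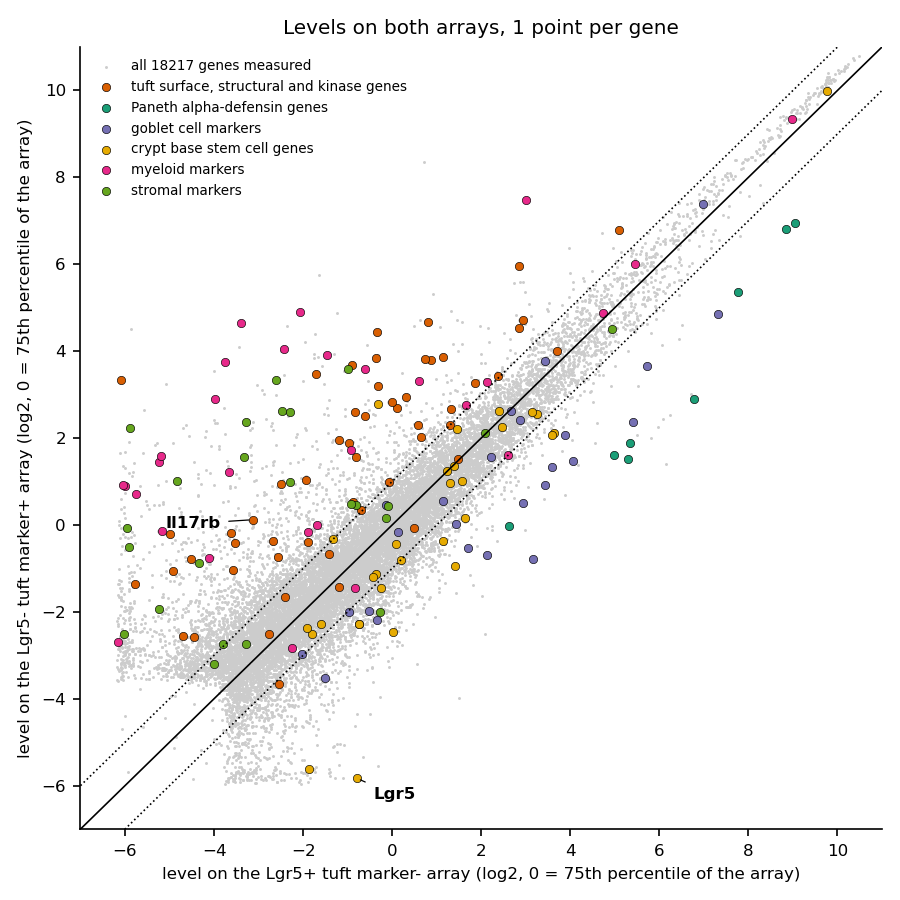
Level of each of the 18217 genes on the Lgr5+ tuft marker- array (horizontal) against the Lgr5- tuft marker+ array (vertical), both in log2 with 0 at the 75th percentile of the array. The solid line marks equal levels and the dotted lines 2-fold differences. Coloured points are members of 6 gene lists: tuft, myeloid and stromal genes lie mostly above the lines, and the 8 alpha-defensin genes and most goblet genes below them.

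Promoter windows are shown for 5 genes chosen from both sides after their values were seen, with short letter patterns that transcription factors of these cell types are known to use. The windows run from 250 bases before to 50 bases after the start of the RefSeq transcript (GRCm38.p6), 5′ to 3′ along the gene. TCF factors, the nuclear partners of beta-catenin, bind patterns such as CTTTGAT or CTTTGAA, and these letters stand in capitals, on either strand, in the windows of the alpha-defensin genes Defa2 (chr8:21378267-21378566, plus strand) and Defa21 (chr8:21025295-21025594, plus strand) and of the mucosal pentraxin gene Mptx1 (chr1:174330268-174330567, plus strand). These genes were at least 10-fold higher in Lgr5-only cells. They were picked because their windows hold the letters, as were the genes of the tuft-only side below, and other genes as far apart are not shown.
Defa2: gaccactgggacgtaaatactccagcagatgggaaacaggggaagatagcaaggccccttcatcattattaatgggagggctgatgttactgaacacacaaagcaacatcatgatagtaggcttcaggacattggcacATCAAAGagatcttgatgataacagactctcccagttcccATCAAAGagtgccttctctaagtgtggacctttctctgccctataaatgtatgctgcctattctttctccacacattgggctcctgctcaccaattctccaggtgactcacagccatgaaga
Defa21: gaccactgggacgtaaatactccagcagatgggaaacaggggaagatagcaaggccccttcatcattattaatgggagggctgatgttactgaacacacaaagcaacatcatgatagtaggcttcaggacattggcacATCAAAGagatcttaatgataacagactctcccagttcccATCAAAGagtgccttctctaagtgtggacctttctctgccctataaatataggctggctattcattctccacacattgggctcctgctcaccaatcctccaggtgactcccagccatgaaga
Mptx1: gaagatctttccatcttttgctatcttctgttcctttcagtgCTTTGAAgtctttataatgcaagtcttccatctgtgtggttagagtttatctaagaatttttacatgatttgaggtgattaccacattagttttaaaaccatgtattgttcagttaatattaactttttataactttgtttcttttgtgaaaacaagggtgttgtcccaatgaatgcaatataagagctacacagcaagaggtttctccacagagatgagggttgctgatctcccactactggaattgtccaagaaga
On the tuft-only side, Ly6g6d (chr17:35081190-35081489, minus strand), a tuft gene at 24.1-fold higher in tuft-only cells, is shown for the octamer ATGCAAAT, read by POU factors such as the tuft cell regulator Pou2f3. Mmp12 (chr9:7344147-7344446, plus strand) is shown for AGAGGAAGT or AAAGGAAGT, read by the myeloid factor PU.1 and related ETS factors. By brightest probes, it had the largest difference between levels above background on both arrays.
Ly6g6d: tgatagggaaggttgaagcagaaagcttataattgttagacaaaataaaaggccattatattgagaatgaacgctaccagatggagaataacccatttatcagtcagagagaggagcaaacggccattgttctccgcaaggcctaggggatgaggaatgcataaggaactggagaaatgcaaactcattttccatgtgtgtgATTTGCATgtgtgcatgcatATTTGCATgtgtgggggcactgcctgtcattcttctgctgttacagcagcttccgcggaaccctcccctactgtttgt
Mmp12: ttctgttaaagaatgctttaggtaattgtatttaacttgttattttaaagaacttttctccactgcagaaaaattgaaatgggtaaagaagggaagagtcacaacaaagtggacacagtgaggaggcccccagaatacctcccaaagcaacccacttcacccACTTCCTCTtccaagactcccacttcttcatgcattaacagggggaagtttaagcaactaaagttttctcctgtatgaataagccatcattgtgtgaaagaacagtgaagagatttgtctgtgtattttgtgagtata

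The Defa2 and Defa21 windows are identical at 97.7% of 300 positions when aligned, and each holds the TCF letters 2 times. Of the 16 measured genes whose symbols start with Defa, 7 have a window and 4 of these hold the TCF letters, against 8.42% of 14407 measured genes with a window. The PU.1 letters were present in 4.80% of 1604 genes higher in tuft-only cells, 1.41% of 1131 genes higher in Lgr5-only cells and 2.05% of all measured genes with a window. For the octamer these shares were 2.12%, 2.03% and 1.81%. Among list members with a window, the octamer stood in 3 of 40 tuft surface, structural and kinase genes. The PU.1 letters stood in 2 of 21 myeloid markers. The TCF letters stood in 9.29% of the genes higher in tuft-only and 7.87% of those higher in Lgr5-only cells. Both strands were searched, the 3 patterns do not contain one another, and a match only describes the letters.

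Surface, structural and kinase genes of tuft cells were mostly higher in tuft-only cells. Of 54 measured genes of that group, 45 were at least 2-fold higher in tuft-only and 1 in Lgr5-only cells, with a median difference of -2.51, which was -1.46 under normexp. Both-marker cells lay on the tuft-only side for 41 of these 46 genes, with neither-marker cells on the other. That placement held for 44.0% of all genes at least 2-fold higher in tuft-only and 23.7% of those higher in Lgr5-only cells. Dclk1, a microtubule-associated kinase used as a tuft marker, was at 0.73, 4.22, -0.12 and 3.81 in Lgr5-only, both-marker, neither-marker and tuft-only cells. The 2 populations sorted for IL17RB were thus high and the other 2 low, and Dclk1 was 8.43-fold higher in tuft-only than in Lgr5-only cells (-3.08 ± 0.20). The same pattern held for the sialic acid receptor gene Siglecf, at -0.37, 3.57, -3.41 and 3.85 (18.7-fold). Neither-marker cells were below Lgr5-only cells in both genes. Avil, which codes for the actin-binding protein advillin, was 7.11-fold higher in tuft-only cells, and Fyb, an adaptor gene, 27.8-fold. Krt18, a keratin gene of simple epithelia, was 3.23-fold higher. The exception was Nrep, at least 2.17-fold higher in Lgr5-only cells.

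The taste-like signalling genes showed a smaller median, -0.93 over 19 measured genes, of which 9 were at least 2-fold higher in tuft-only and 0 in Lgr5-only cells. The cation channel gene Trpm5, which opens at the end of the cascade, was at 0.88, 4.35, -1.83 and 3.80 in the same order of arrays and 7.61-fold higher in tuft-only than in Lgr5-only cells. The phospholipase gene Plcb2, upstream of it, was at -1.06, 3.71, -3.01 and 2.66 (13.2-fold), with both-marker cells the highest for both genes, though 1 of its 3 probes gave -0.80. Itpr2, an IP3 receptor gene, differed 6.25-fold by its brightest probe and by -0.50 by the other, and Rgs2 and Rgs13, genes of regulators of G protein signalling, 9.67-fold and 7.90-fold. Gnat3, the gustducin alpha subunit gene, was not above background in Lgr5-only or neither-marker cells and was at least 4.18-fold higher in tuft-only cells. Gng13, its gamma subunit partner, was at -3.39 in Lgr5-only and -1.58 in tuft-only cells and not above background in both-marker cells, so here the tuft-only array stood alone. The sweet and umami receptor subunit gene Tas1r3 did not reach 2-fold, with levels of -0.34, -0.82, -0.69 and -0.77.

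Among 14 tuft cell transcription factor genes, 6 were at least 2-fold higher in tuft-only and 1 in Lgr5-only cells, with a median of -0.86. Pou2f3, the POU factor that tuft cells require, was at -0.89, 0.56, -2.12 and 0.53, which is 2.67-fold higher in tuft-only than in Lgr5-only cells. Spib, an ETS factor gene, differed more, at -1.33, 2.20, -2.52 and 1.95 (9.72-fold). Nfatc1 and Hmx3 were 4.37-fold and 4.06-fold higher in tuft-only cells, with a difference of -0.92 by the other probe of Nfatc1. Gfi1b, a zinc finger repressor gene of tuft cells, differed by -0.74 ± 0.22 and did not reach 2-fold. Factors shared with stem and secretory cells lay the other way. Sox9 was at 3.25, 3.26, 2.58 and 2.55, following Lgr5 with a difference of 0.69 ± 0.20, and Spdef, the goblet and Paneth regulator, was 2.76-fold higher in Lgr5-only cells.

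Eicosanoid synthesis genes divided into members on both sides. Of 18 measured, 9 were at least 2-fold higher in tuft-only and 2 in Lgr5-only cells, with a median of -0.92, and 5 of the list also belong to the tuft lists. The cyclooxygenase genes Ptgs1 and Ptgs2 were at least 12.6-fold and 24.6-fold higher in tuft-only cells, with Ptgs2 at -3.18, 0.50, -1.87 and 1.44 and so high in both populations sorted for the tuft marker. The leukotriene branch was on the same side, with Alox5 10.8-fold, its activating protein gene Alox5ap 6.20-fold and the leukotriene C4 synthase gene Ltc4s 2.54-fold higher in tuft-only cells. Hpgds, which codes for a prostaglandin D synthase, was at least 8.44-fold and the thromboxane synthase gene Tbxas1 at least 13.9-fold higher. Pla2g5, a secreted phospholipase gene, was 7.54-fold higher in Lgr5-only cells, at 1.75, 0.19, 1.09 and -1.16.

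The alarmin and IL-25 receptor genes showed no common direction, with a median of -0.17 over 15 genes, 4 at least 2-fold higher in tuft-only and 2 in Lgr5-only cells. Il25 itself was dim on all arrays. It was not above background in Lgr5-only and both-marker cells, and reached -2.98 in neither-marker and -2.57 in tuft-only cells, at least 2.44-fold above Lgr5-only cells. Il17ra, the partner subunit of Il17rb, was 2.15-fold higher in tuft-only cells, while the IL-17 receptor family gene Il17rd was 3.98-fold higher in Lgr5-only cells by its brightest probe and its probes disagreed in direction by more than 1 log2 unit.

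**Figure D2:**
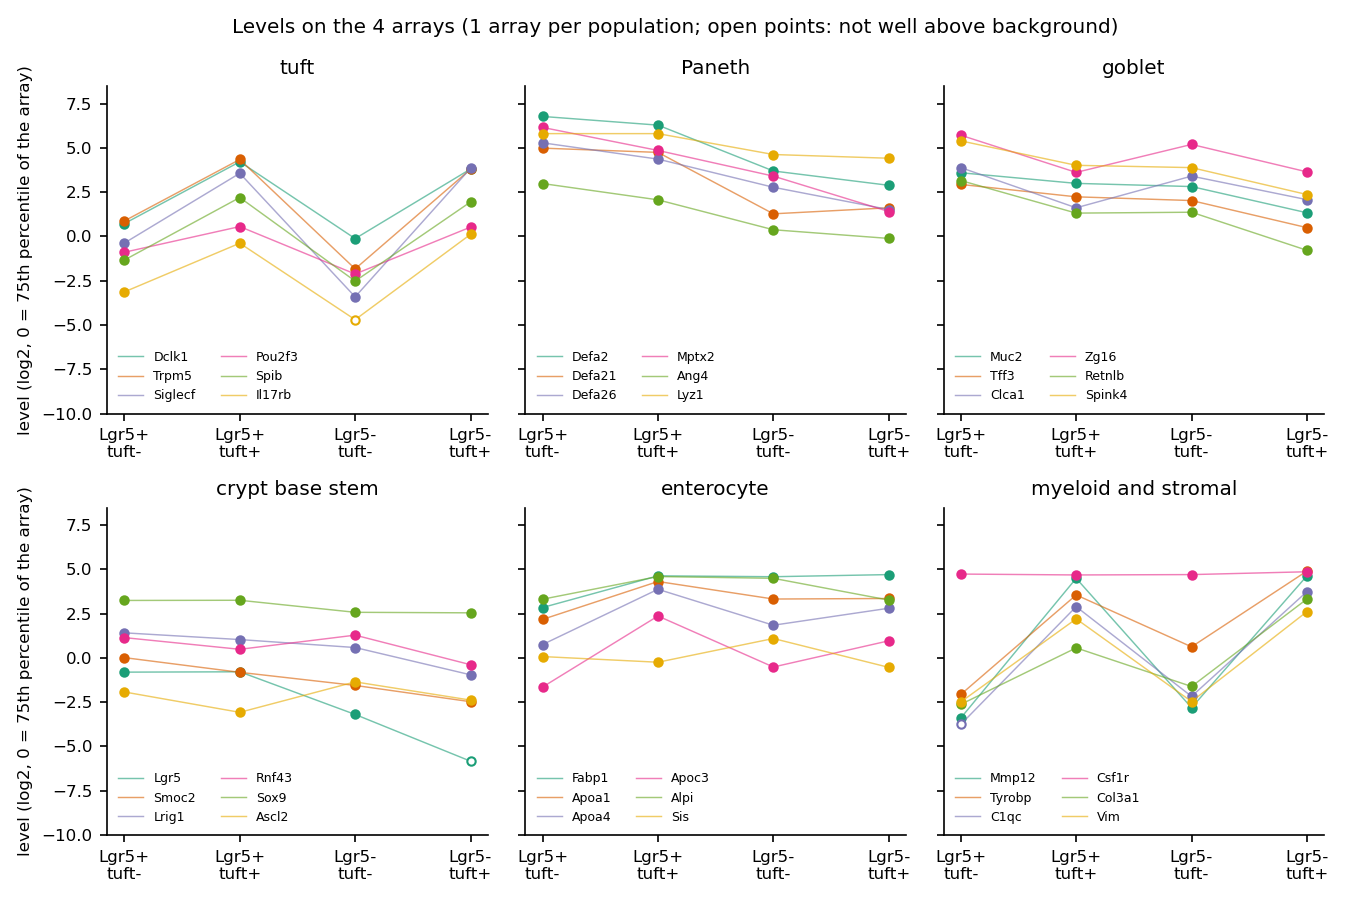
Levels of selected genes on the 4 arrays (log2, 0 at the 75th percentile of the array, 1 array per population), with open points where a gene was not well above background. Tuft, myeloid and stromal genes, apart from Csf1r, are high in both populations sorted for the tuft marker, Paneth genes are high in both populations sorted for Lgr5, and Fabp1 and Apoa1 are lowest in Lgr5-only cells.

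Myeloid and stromal markers lay on the tuft-only side as lists. Among genes above background on both arrays, the 12 with the largest difference towards tuft-only cells were Mmp12, Apoe, Sirpa, Rgs1, Pla2g7, Tyrobp, Rassf2, Msn, Aif1, Cybb, Gprc5c and Klra2, from 262-fold for Mmp12 to 71.5-fold for Klra2, with those of Pla2g7 (at least 137-fold) and Gprc5c (at least 73.8-fold) as limits. The brightest probe of these 2 genes read below the floor in Lgr5-only cells, where another probe was above background. The other probe of Gprc5c gave a difference of -0.03, another of the 3 Mmp12 probes -1.19 and the other Klra2 probe -3.65. Mmp12, the macrophage elastase gene, was at -3.39, 4.50, -2.81 and 4.64 in Lgr5-only, both-marker, neither-marker and tuft-only cells. Apoe, a lipid transport gene, was at 0.71, 7.55, 3.43 and 8.35, and Tyrobp, a signalling adaptor gene of myeloid and NK cells, at -2.06, 3.56, 0.63 and 4.91. In each of the 3 genes both populations sorted for IL17RB were high, Lgr5-only cells were the lowest and neither-marker cells lay between. Among genes above background on the tuft-only but not the Lgr5-only array, the 6 largest lower limits were those of Tlr12, C1qc, Lilrb4a, Ptprc, Adgre1 and Clec10a, from at least 328-fold to at least 91.1-fold higher in tuft-only cells. Ptprc codes for the leukocyte antigen CD45, which tuft cells also carry, and Adgre1 for a macrophage surface receptor. The other probe of Ptprc gave -3.03 and that of Adgre1 -2.79.

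Of 29 myeloid markers, 23 were at least 2-fold higher in tuft-only and 1, the lysozyme gene Lyz2, in Lgr5-only cells, with a median of -3.71, which was -1.71 over the genes above background on both arrays and -2.01 under normexp. All 29 were above background in tuft-only cells, 28 in both-marker, 23 in neither-marker and 18 in Lgr5-only cells. The log2 of their summed intensity was 9.24 in Lgr5-only, 9.44 in neither-marker, 9.89 in both-marker and 10.09 in tuft-only cells. Much of each sum came from 1 bright gene, Itgam, at 8.98, 9.19, 9.33 and 9.34 in that order. The median level of the list was -2.06, -1.89, 1.58 and 1.72 in that order. Of these markers, Adgre1, C1qa and C1qc were not above background in Lgr5-only cells, while Tyrobp, Cd68, Csf1r and Itgam were. Cd68 was at 0.61, 2.68, 0.34 and 3.31 in Lgr5-only, both-marker, neither-marker and tuft-only cells. C1qc reached 2.90 in both-marker, -2.17 in neither-marker and 3.75 in tuft-only cells. Some bright probes barely differed, among them Itgam at -0.35 ± 0.20 and Csf1r at -0.12 ± 0.20, yet the probe of Csf1r with the widest range over the arrays gave -4.13.

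Stromal markers went the same way, with 17 of 24 at least 2-fold higher in tuft-only cells, 1 in Lgr5-only cells and a median of -2.45, which was -1.42 over genes above background on both arrays and -1.0 under normexp. They were above background for 24 of 24 genes in tuft-only, 18 in both-marker, 16 in neither-marker and 15 in Lgr5-only cells, with log2 summed intensities of 6.44, 5.76, 5.63 and 5.34. The fibrillar collagen gene Col3a1 was at -2.62, 0.57, -1.61 and 3.33, a 61.8-fold difference, and the intermediate filament gene Vim at -2.48, 2.21, -2.46 and 2.62, a 34.3-fold difference. Pdgfra, a fibroblast receptor gene, was above background in tuft-only cells only, at -2.50. Postn was the marker on the other side, 3.31-fold higher in Lgr5-only cells by its brightest probe and -0.26 by the mean of its probes.

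Lymphoid and vascular markers showed smaller shifts. Of 17 T and NK cell markers 6, of 11 B and plasma cell markers 5, of 16 ILC2 and mast cell markers 7 and of 12 endothelial markers 5 were at least 2-fold higher in tuft-only cells, with medians of -0.71, -0.83, -0.62 and -0.81. The other way, 2 of the ILC2 and mast cell markers were at least 2-fold higher in Lgr5-only cells and 0 of the other 3 lists. The shares over all genes were 11.4% on the tuft-only and 7.94% on the Lgr5-only side. Erythroid markers (6 genes) and enteric neuron and glia markers (7 genes) held 0 genes 2-fold apart, with medians of -0.48 and 0.14, the latter -0.09 in the authors' table. The granzyme gene Gzma was at -0.52, -0.30, 1.30 and 2.65 and so followed the absence of Lgr5 rather than the tuft marker. The T cell receptor gene Cd3e was at 2.13 in Lgr5-only and 2.22 in tuft-only cells by its brightest probe, a difference of -0.09 ± 0.20, but its other probe gave -1.48. The part of myeloid, stromal and lymphoid markers in the tuft-only differences was not tested.

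Many tuft genes are also known from blood cells, so the 54 tuft surface, structural and kinase genes were divided on that knowledge, after their values were seen. Of 29 genes that blood cells are also known to express, such as Ptprc and Alox5, 27 were at least 2-fold higher in tuft-only cells, with a median of -2.84. Of the other 25, such as Dclk1, Trpm5 and Avil, 18 were at least 2-fold higher in tuft-only and 1 in Lgr5-only cells, with a median of -1.42.

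Antigen presentation and interferon response genes accompanied these differences. All 8 measured MHC class II presentation genes were higher in tuft-only cells, 4 of them at least 2-fold, with a median of -0.97. H2-Ab1, a class II beta chain gene, was at 4.0, 5.19, 4.26 and 5.81 and 3.50-fold higher in tuft-only cells, and Cd74, the invariant chain gene, was at 5.39, 6.36, 5.84 and 6.26 and 1.83-fold higher. Of 12 class I genes 4 were at least 2-fold higher in tuft-only cells, among them B2m at 2.42-fold, with 1 the other way. For Nlrc5 and Tap2, also among the 4, the other probe differed in direction, at 0.42 and 0.80. Of 23 interferon response genes 16 were at least 2-fold higher in tuft-only and 0 in Lgr5-only cells, with a median of -1.19. Gbp2, a guanylate-binding protein gene, was at -3.64, -0.42, -2.25 and 0.86 (22.5-fold), and the chemokine gene Cxcl10 was at least 16.7-fold higher. Myeloid markers were high on the same 2 arrays, and their part in these values was not tested.

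Fetal-like and regenerative epithelial genes had a median of -0.51 over 22 genes, with 8 at least 2-fold higher in tuft-only and 1 in Lgr5-only cells. The leading members were Spp1, which codes for osteopontin and is also known from macrophages, at least 54.8-fold higher in tuft-only cells, Il1rn, an interleukin 1 receptor antagonist gene, 18.6-fold, and the annexin genes Anxa5 and Anxa1, 17.7-fold and 10.5-fold. Ly6a, the gene of the Sca-1 antigen, was 2.25-fold higher in tuft-only cells but was highest in neither-marker cells, at 0.98, 0.88, 2.57 and 2.15. Cldn4, a tight junction gene, was the member on the Lgr5-only side.

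Alpha-defensins and other Paneth cell products made up most of the genes with the largest differences towards Lgr5-only cells among those above background on both arrays. In this set, the 12 largest differences towards Lgr5-only cells were those of Mptx2, Mptx1, Retnlb, Defa2, Defa42, Defa26, Pdia5, Defa38, Defa43, Defa36, Ang2 and Defa-ps1, from 26.9-fold for Mptx2 to 12.4-fold for Defa-ps1. All 8 measured alpha-defensin genes of the list were at least 2-fold higher in Lgr5-only cells, with a median of 3.01. Defa2, whose window is shown above, was at 6.78, 6.29, 3.70 and 2.89 in Lgr5-only, both-marker, neither-marker and tuft-only cells, and Defa21 at 4.99, 4.75, 1.28 and 1.62. For all 8 genes the both-marker level lay on the Lgr5-only side of the midpoint between the Lgr5-only and tuft-only levels. The neither-marker level lay on the tuft-only side of it. Over all genes at least 2-fold higher in Lgr5-only cells, 10.0% were placed so. Taking every measured gene with a Defa symbol, a set made after the values were seen, 16 of 16 were higher, from 1.72 to 3.89. Defensin genes are near copies of one another, so a probe may read several of them and the members are not separate evidence.

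Other Paneth products divided. Of 19 measured, 8 were at least 2-fold higher in Lgr5-only and 2 in tuft-only cells, with a median of 0.71. The mucosal pentraxin gene Mptx2 was at 6.16, 4.86, 3.41 and 1.41, with neither-marker cells between the Lgr5+ populations and tuft-only cells, and the angiogenin gene Ang4 at 2.99, 2.07, 0.38 and -0.11 (8.61-fold). Mmp7, the protease that matures defensins and a Wnt target, was 6.32-fold and the lysozyme gene Lyz1 2.63-fold higher in Lgr5-only cells. Agt, the angiotensinogen gene, was the extreme on the other side, at least 11.3-fold higher in tuft-only cells and near equal in both-marker cells, at -0.35 and -0.26.

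Goblet cell markers were higher in Lgr5-only cells for 17 of 26 genes at the 2-fold threshold, with 0 in tuft-only cells and a median of 1.67, which was 0.85 under normexp. Here the arrays were ordered otherwise than for the defensins. For 11 of the 17 genes the both-marker and neither-marker levels both lay nearer to the Lgr5-only level, so that the tuft-only array stood apart. Over all genes at least 2-fold higher in Lgr5-only cells, it stood apart for 47.3%. Muc2, the main gel-forming mucin gene, was at 3.60, 3.0, 2.82 and 1.34 and 4.79-fold higher in Lgr5-only than in tuft-only cells. The trefoil factor gene Tff3 was at 2.94, 2.24, 2.03 and 0.50 (5.41-fold), and Retnlb, a gene of a secreted resistin-like protein, at 3.16, 1.32, 1.37 and -0.78 (15.3-fold). Clca1 and Zg16, secreted goblet proteins, were instead low in both populations sorted for the tuft marker, Zg16 at 5.72, 3.62, 5.20 and 3.65. Pdia5, a protein disulfide isomerase gene, was at 0.56, -0.32, -0.37 and -3.19.

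The transcription factors of the secretory lineage were higher in Lgr5-only cells for all 10 measured genes by their brightest probes. Of these, 6 were at least 2-fold higher, and the median of the list was 1.04. Foxa3 was at 0.97, -0.25, 0.34 and -2.12 (8.51-fold), and Foxa2 at -0.19, -0.23, -2.40 and -1.78, the one standing low in tuft-only cells alone and the other low in both populations without Lgr5. Bhlha15, a regulator of secretory granule cells, was above background in the 2 Lgr5+ populations only, at -1.72 and -1.76. Atoh1, the factor that starts the secretory fate, was 2.07-fold higher in Lgr5-only than in tuft-only cells. Gfi1 and Xbp1 did not reach 2-fold by their brightest probes, at 0.58 and 0.55. The other Gfi1 probe went the other way, at -0.52, and another Xbp1 probe gave 1.26.

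Enteroendocrine genes gave a mixed picture, with a median of 0.51 over 33 genes, 10 at least 2-fold higher in Lgr5-only and 2 in tuft-only cells. The granule protein gene Chga was at 1.91, 0.86, 2.45 and -0.48 and Chgb at 4.04, 3.93, 4.26 and 1.95, both highest in neither-marker cells. Nkx2-2, a hormone cell transcription factor gene, was 8.16-fold higher by its brightest probe, at 3.03, and equal within 0.03 by the other, and the neuropeptide precursor gene Tac1 was 5.84-fold higher in Lgr5-only than in tuft-only cells. Nts, the neurotensin gene, lay the other way, 5.80-fold higher in tuft-only cells and not above background in both-marker cells. Neurog3, which marks hormone cell progenitors, was at -1.78, -1.87, -2.19 and -1.64.

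**Figure D3:**
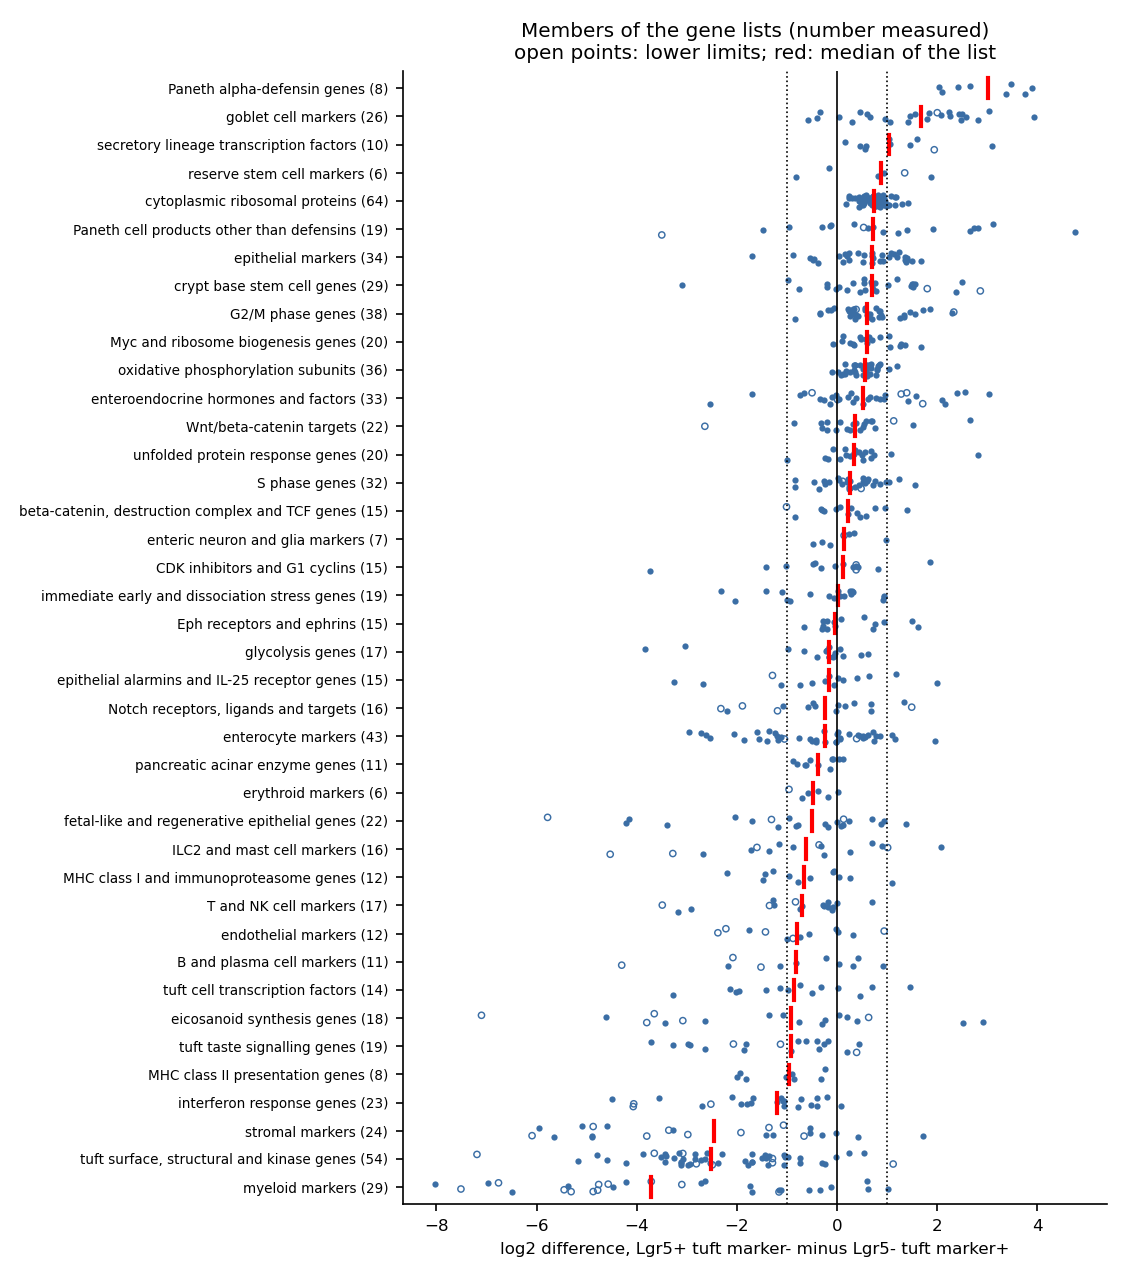
Log2 difference (Lgr5+ tuft marker- minus Lgr5- tuft marker+) of every measured member of 40 gene lists, ordered by the list median, with the number measured in brackets, open points for lower limits, red bars for medians and dotted lines at 2-fold. Medians run from 3.01 for the alpha-defensins to -3.71 for the myeloid markers.

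Crypt base stem cell genes were on the Lgr5-only side for 23 of 29 genes. Of the 29 measured, 11 were at least 2-fold higher in Lgr5-only and 1 in tuft-only cells, with a median of 0.69. This median was near those of general epithelial markers (0.70) and cytoplasmic ribosomal protein genes (0.73). The part of other cell types in the lower tuft-only levels was not tested. Smoc2, a matricellular protein gene, followed Lgr5 with 0.02, -0.81, -1.55 and -2.47 (5.61-fold). For 8 of the 12 genes at least 2-fold apart it was the tuft-only array that stood apart. It did so for 47.3% of all genes at least 2-fold higher in Lgr5-only and 40.4% of those higher in tuft-only cells. Among the 8 was Lrig1, a gene of a negative regulator of growth factor receptors, at 1.42, 1.04, 0.59 and -0.95 (5.16-fold). So was Rnf43, a gene of a Wnt receptor ubiquitin ligase, at 1.15, 0.49, 1.29 and -0.38 (2.87-fold). Ascl2, a Wnt-dependent stem cell factor gene, was at -1.92, -3.07, -1.35 and -2.38, with a difference of 0.46 ± 0.26 and its highest level in neither-marker cells. Fstl1, at 8.53-fold higher in tuft-only cells, was the exception, and it is also known from stromal cells. Of 6 reserve stem cell markers 2 were at least 2-fold higher in Lgr5-only cells, the transcription factor gene Sox4 at 3.69-fold and Mex3a at least 2.54-fold.

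Most Wnt pathway genes were less than 2-fold apart by their brightest probes. Of 22 measured Wnt targets, 3 were at least 2-fold higher in Lgr5-only cells (Mmp7, Rnf43 and Nkd1) and 1 in tuft-only cells (Dkk3), with a median of 0.35. Axin2, the feedback inhibitor that is used as a readout of the pathway, was at -0.44, 0.03, 0.25 and -1.20, lowest in tuft-only cells by 0.76 ± 0.22. Myc was at 4.21, 3.91, 3.93 and 3.96 and Notum, a secreted Wnt deacylase gene, at 3.05, 2.65, 2.66 and 3.25, within 2-fold on all arrays by their brightest probes, while the other Myc probe gave a difference of 1.20. Of 15 genes of beta-catenin, its destruction complex and TCF factors 1 was at least 2-fold higher on either side, and the median was 0.21, but -0.02 in the authors' table of processed values. The gene on the Lgr5-only side was Gsk3a, at 1.39, and its other probe gave -0.63. Of 15 Eph receptor and ephrin genes 2 were at least 2-fold higher in Lgr5-only and 0 in tuft-only cells, against 7.94% and 11.4% of all genes. Their median was -0.04, which was 0.08 under median scaling and under quantile normalization. Ephb2, a receptor that sorts crypt cells by position, differed by 0.53 ± 0.20.

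Notch pathway genes lay on both sides, with 5 of 16 at least 2-fold higher in tuft-only and 2 in Lgr5-only cells and a median of -0.24. The receptor gene Notch2 was at 0.39, 2.34, 1.05 and 2.59 (4.58-fold higher in tuft-only than in Lgr5-only cells), and the glycosyltransferase gene Lfng, which tunes Notch receptors, was at least 5.01-fold higher, with both-marker cells the highest at -0.49, while its other probe gave -0.47. The ligand genes Dll1 and Dll4 differed by 0.68 ± 0.22 and 0.33 ± 0.21 towards Lgr5-only cells, and the target gene Hes1 by -0.59 ± 0.21 towards tuft-only cells.

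Enterocyte genes fell into groups. Of 43 measured, 15 were at least 2-fold higher in tuft-only and 3 in Lgr5-only cells, with a median of -0.24, and for 10 of these 18 genes it was the Lgr5-only array that stood apart, as it did for 10.5% of all genes at least 2-fold higher in tuft-only and 19.0% of those higher in Lgr5-only cells. Fabp1, a fatty acid binding protein gene, was at 2.85 in Lgr5-only cells and at 4.64, 4.59 and 4.71 in both-marker, neither-marker and tuft-only cells. The apolipoprotein gene Apoa1 was likewise lowest in Lgr5-only cells, at 2.18 against 4.32, 3.33 and 3.36, as was Apoa4 at 0.76 against 3.88, 1.85 and 2.81. Genes of the brush border hydrolases did not share this: Alpi was at 3.32, 4.60, 4.50 and 3.27 and Sis at 0.08, -0.24, 1.1 and -0.53, with differences of 0.05 ± 0.20 and 0.61 ± 0.21.

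General epithelial markers were on the Lgr5-only side for 28 of 34 genes, 12 of them at least 2-fold against 1 at least 2-fold higher in tuft-only cells, with a median of 0.70. For 10 of these 13 genes the tuft-only array stood apart. Its share was 47.3% of all genes at least 2-fold higher in Lgr5-only and 40.4% of those higher in tuft-only cells. Ocln, a tight junction gene, was at 0.40, -0.11, 0.94 and -1.27 (3.18-fold), and the splicing regulator gene Esrp2, which marks epithelial cells, at -0.93, -0.97, -0.86 and -2.44 (2.83-fold). The keratin gene Krt19 was 2.64-fold higher in Lgr5-only cells and Krt8 1.31-fold higher in tuft-only cells. Stromal and myeloid markers were highest on the tuft-only array, and their part in the lower epithelial levels there was not tested.

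Of 38 G2/M genes of the cell cycle, 32 were on the Lgr5-only side, 9 at least 2-fold and 0 the other way, with a median of 0.60. The mitotic kinesin gene Kif11 was at -0.44, -2.59, -0.47 and -2.73 (4.90-fold) and the phosphatase gene Cdc25c was above background only in the 2 populations without the tuft marker, at least 5.02-fold higher in Lgr5-only than in tuft-only cells. Ccnb1, a mitotic cyclin gene, was 2.73-fold higher by its brightest probe with another of its 3 at -0.51, while the proliferation marker gene Mki67 was at 1.66, 2.04, 2.55 and 1.1, a difference of 0.56 ± 0.20. S phase genes had a median of 0.25, with 3 of 32 at least 2-fold higher in Lgr5-only and 0 in tuft-only cells. The former count is near the share over all genes, 7.94%. The replication helicase gene Mcm2 led these genes at 2.93-fold. Pcna, the replication clamp gene, was at 3.30 and 3.27 on the Lgr5-only and tuft-only arrays. Of 15 CDK inhibitors and G1 cyclins 3 were at least 2-fold higher in tuft-only and 1 in Lgr5-only cells, with a median of 0.12, which was -0.10 in the authors' table. Cdkn1c was at -2.30, 0.24, -3.29 and 1.43 (13.3-fold higher in tuft-only than in Lgr5-only cells), Cdkn1a 2.67-fold higher in tuft-only cells with its other probe at -0.28, and Cdkn2b 3.61-fold higher in Lgr5-only cells.

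Lists of protein synthesis and respiration genes had medians below 2-fold on the Lgr5-only side. All 64 measured cytoplasmic ribosomal protein genes were higher in Lgr5-only than in tuft-only cells, 8 of them at least 2-fold, with a median of 0.73. Beside the counts of this and the following lists, 7.94% of all genes were at least 2-fold higher in Lgr5-only and 11.4% in tuft-only cells. Rplp0 was at 3.88, 3.68, 4.06 and 3.07 and Rps14 at 3.90, 2.37, 4.13 and 2.48, the former low in tuft-only cells alone and the latter in both populations with the tuft marker. Of 20 Myc and ribosome biogenesis genes 6 were at least 2-fold higher in Lgr5-only and 0 in tuft-only cells (median 0.59), led by Rrp9 at 3.20-fold. Of 36 oxidative phosphorylation subunit genes 35 were higher in Lgr5-only cells, with a median of 0.55. Only 2 were at least 2-fold higher in Lgr5-only and 0 in tuft-only cells, with Atp5b, of the ATP synthase, at 2.29-fold. Glycolysis genes had a median of -0.17, with the hexokinase gene Hk1 8.17-fold by its brightest probe (-3.03, against -0.20 by the other) and the lactate dehydrogenase gene Ldhb 14.4-fold higher in tuft-only cells, while Hk2 and Ldha differed by -0.05 ± 0.20 and -0.17 ± 0.20. Of 20 unfolded protein response genes 2 were at least 2-fold higher in Lgr5-only cells, Pdia3 (1.08, and 0.60 by its other probe) and Ern2, the latter 7.01-fold and typical of goblet cells, and 1 in tuft-only cells, Atf6 at 2.01-fold. Immediate early and stress genes, which respond to cell dissociation, had 4 of 19 genes at least 2-fold higher in tuft-only and 0 in Lgr5-only cells, with a median of 0.02, which was -0.12 under quantile normalization and -0.21 in the authors' table. Their members ranged from Ier3, 4.97-fold higher in tuft-only cells, to Ier2, 1.91-fold higher in Lgr5-only cells, with Fos at 3.22, 3.60, 2.70 and 3.39.

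The both-marker and neither-marker levels were placed against the midpoint between the Lgr5-only and tuft-only levels of each gene. A gene was said to go with the tuft marker where the both-marker level lay on the tuft-only side of the midpoint and the neither-marker level on the Lgr5-only side, and to go with Lgr5 in the reverse case. Of the 2071 genes higher in tuft-only cells, 911 (44.0%) went with the tuft marker and 106 (5.12%) with Lgr5, and in 837 (40.4%) both other arrays lay on the Lgr5-only side. The number going with the tuft marker ran from 498 to 1150 over the other ways of processing. The share going with the tuft marker was 67.6% of the 652 genes at least 4-fold higher and 94.9% of the 158 at least 16-fold higher in tuft-only cells. Of the 1446 genes higher in Lgr5-only cells, 342 (23.7%) went with the tuft marker, 145 (10.0%) with Lgr5 and 684 (47.3%) had the tuft-only array apart. Over the other ways of processing, the 342 ran from 82 to 555, the 145 from 59 to 209, and the 106 on the tuft-only side from 10 to 181. Among the 195 at least 4-fold higher, 22.6% (44 genes) went with Lgr5. These 44 include all 8 alpha-defensin genes of the list, which are near copies and not separate evidence. Genes less than 2-fold apart gave 19.1% with the tuft marker, 10.6% with Lgr5 and 44.8% with the tuft-only array apart. The shares with Lgr5 and with the tuft-only array apart were thus near alike in these genes and in the 1446 higher in Lgr5-only cells. These shares describe the same 4 arrays and are not independent of the comparison.

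**Figure D4:**
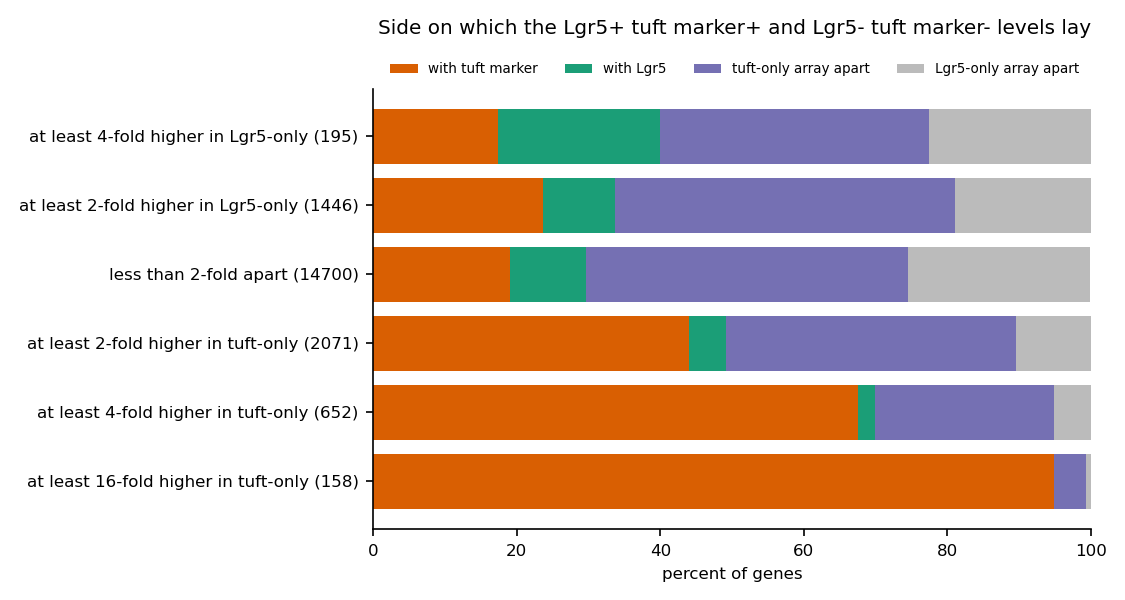
Percent of genes in each size class of difference (number of genes in brackets) by the side of the midpoint on which the both-marker and neither-marker levels lay. The share going with the tuft marker grows from 44.0% to 94.9% with the size of the difference towards tuft-only cells. The share going with Lgr5 is 10.0% and 22.6% on the Lgr5-only side, against 10.6% of genes less than 2-fold apart. Alpha-defensin genes, near copies of one another, are counted there as separate genes.

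Genes above background on the Lgr5-only but not the tuft-only array were led by D630039A03Rik, Plut, A930009A15Rik, Rcor1, Mnd1 and 4930571O06Rik, at least 35.4-fold to at least 7.33-fold higher in Lgr5-only cells. Of these, Rcor1 codes for a corepressor of the CoREST complex and Mnd1 for a meiotic recombination factor. D630039A03Rik was at 1.49 in Lgr5-only, -0.40 in both-marker and 0.39 in neither-marker cells. For 4930571O06Rik the Lgr5-only array, at -0.78, was the only one above background.

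**Figure D5:**
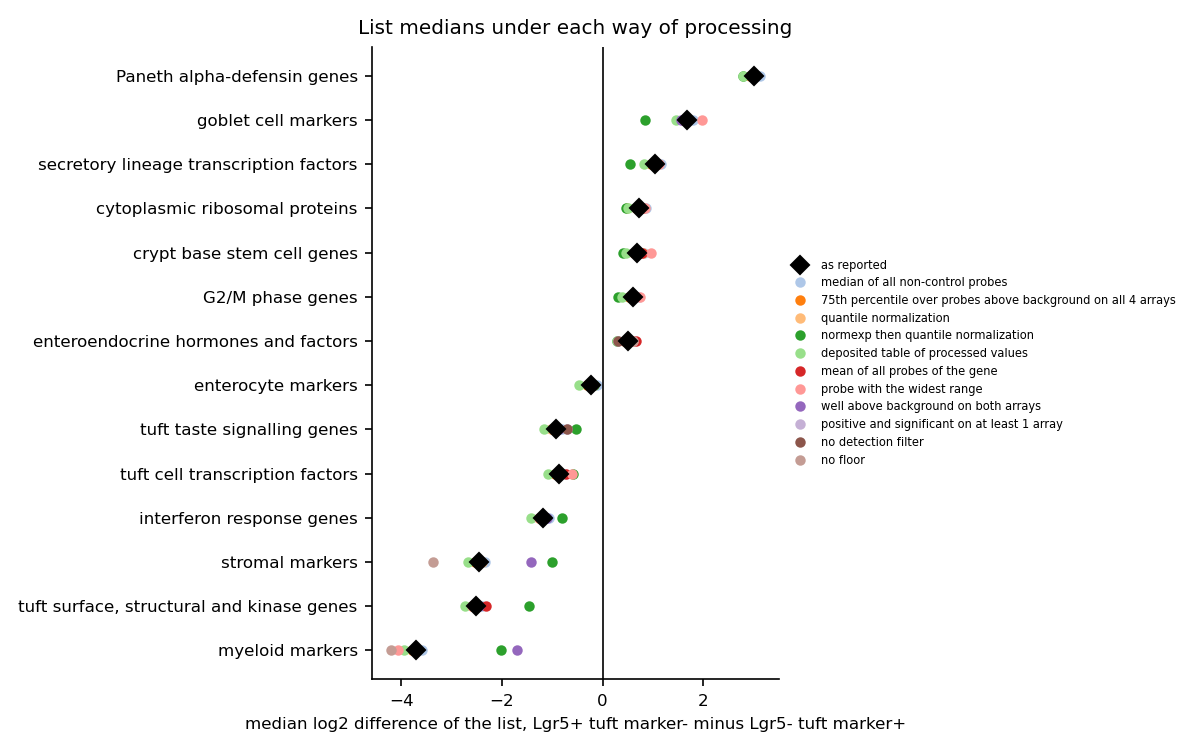
Median log2 difference of 14 gene lists as reported (black diamonds) and under 11 other ways of processing the same arrays (coloured points). Each list shown keeps its side of 0 in every setting, and the myeloid, stromal and tuft surface medians move the most.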

How the data were processed

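Populations of sorted mouse tumour cells were measured on 4 Agilent 1-colour arrays, and 2 of them are compared here. Per the labels, 13 ng of total RNA was amplified and labelled with Cy3. Per the file headers, Feature Extraction 12.0.3.1 gave the deposited processed intensity of each spot, background-subtracted and detrended, with no scaling between arrays. Version 11.5.1.1 is the one in the submitters' processing notes. The authors also deposited a table of processed values, which from the values is the scanner intensity times 1 constant per array (7.82 for the Lgr5-only and 11.9 for the tuft-only array), on a linear scale, not centred by gene, with the intended scaling unstated and column medians of 286 and 365. The deposited flags are 0 or 1 scores of the same software.

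Control spots and 91 to 122 outlier spots per array were left out, copies of a probe averaged, log2 taken and the 75th percentile of the array subtracted. All arrays lay on 1 slide read in 1 scan. Of 56605 probes, 32994 were named through RefSeq accessions (GRCm38.p6), giving 22911 genes, and 1160 of 5875 genes with several measured probes had probes differing in direction by more than 1 log2 unit. Each gene was read from its brightest probe by mean level. The floor of an array is the lowest level that any well-above-background probe had on it, and lower values were raised to it. In 2365 differences the dimmer level was raised or not above background, and these are lower limits.

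The genes printed were taken from Lgr5, Il17rb, Epcam and Ctnnb1, the 12 largest differences on each side among genes above background on both arrays, the 6 largest limits on each side, and of each of 40 lists (841 of 859 symbols with a probe; 4 or more measured) the anchor genes, the 3 members farthest in the direction of the median and the 1 farthest the other way. Not all of these are printed, and some are not reported here. The members and lists were chosen with earlier results of these data known. The alternatives used other scalings, the deposited table, limma 3.58.1 normexp (offset 50, on median spot signals, because mean signals were not used here), other probes, detection rules and no floor. Steps were tested on simulated data, with Python 3.11.15, numpy 2.4.6 and pandas 2.3.3. Promoter windows matched 14407 of 18217 measured genes by symbol.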

Additional observations from a re-analysis of the deposited data

How the results depend on the processing

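No paired analysis was possible because each population has 1 array and the labels carry no replicate numbers, and for the same reason no array could be left out. Of 40 list medians under 11 alternatives, 399 values stayed within the spread between probes with the same sign, 25 moved and 16 changed sign. Background correction by normexp with quantile normalization compressed the differences. It gave 342 genes higher in Lgr5-only and 829 higher in tuft-only cells, and medians of -1.46 for the tuft surface, structural and kinase genes, 0.85 for goblet, -2.01 for myeloid and -1.0 for stromal markers. The authors' table of processed values gave 912 genes higher in Lgr5-only cells. With genes above background on both arrays, the myeloid and stromal medians were -1.71 and -1.42, since the genes measured as limits leave the list, and without a floor they were -4.21 and -3.37. Medians near 0 changed sign. That of the Eph genes was 0.08 under median scaling and quantile normalization and 0.02 under normexp. That of the immediate early and stress genes was -0.06 under the 75th percentile over detected probes, -0.12 under quantile normalization, -0.14 under normexp, -0.21 in the authors' table and -0.07 with the mean over a gene's probes. That of the beta-catenin and TCF genes was -0.02 in the authors' table. CDK inhibitors and G1 cyclins, at 0.12, had -0.10 there, -0.04 with the mean over a gene's probes and -0.04 with genes above background on both arrays. Enteric neuron and glia markers, at 0.14, had -0.09, -0.14 with the mean over a gene's probes, and -0.07 both with the flag for positive and significant spots and with no detection filter. Postn was -0.26 with the mean of its probes. Except where stated, the cause was not tested. The shares of higher calls were 34.4% with detected probes, 46.1% under quantile normalization, 29.2% under normexp and 46.5% with the widest-ranging probe. Signal over background limits 2365 of the differences, which are lower bounds.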

Other observations

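Genes of pancreatic digestive enzymes gave a signal that went with neither marker. Of 11 measured acinar enzyme genes, 0 were 2-fold apart between Lgr5-only and tuft-only cells, with a median of -0.39, yet both of these arrays stood above the other 2. The trypsinogen gene Prss2 was at 2.71 in Lgr5-only and 2.80 in tuft-only cells, at -0.49 in neither-marker cells, and not above background in both-marker cells. Cpa1, a carboxypeptidase gene, was at 0.97, -2.76, -0.52 and 1.85 in Lgr5-only, both-marker, neither-marker and tuft-only cells. The median level of the 11 genes was 1.66, -2.76, -0.49 and 1.95 in that order. All 11 were above background on both single-marker arrays and on the neither-marker array, and 6 on the both-marker array.

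Kit, a receptor tyrosine kinase gene known from secretory cells of the colonic crypt base and from mast cells, was at -0.42, 0.26, -1.77 and -2.49, 4.21-fold higher in Lgr5-only than in tuft-only cells, whereas Hdc, the histidine decarboxylase gene of mast cells, was at least 9.72-fold higher in tuft-only cells by its brightest probe and 0.46 by the other. Families of symbols were counted after the values were seen. At least 2-fold higher in tuft-only cells were 5 of 5 Fc gamma receptor, 12 of 26 Clec, 9 of 14 cathepsin and 13 of 33 collagen genes. In these families 0 genes were at least 2-fold higher in Lgr5-only cells. Of 30 Ccl and Cxcl chemokine genes, 16 were at least 2-fold higher in tuft-only cells and 1 the other way. The shares over all genes were 11.4% on the tuft-only and 7.94% on the Lgr5-only side.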
